A study of Mus musculus with 20 samples.

Results

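The dorsal root ganglia of the uninjured side were compared between mice with an inducible, Thy1-directed deletion of Ahr and their controls. Of the 20 mRNA sequencing libraries of the study, the 10 contralateral ones were compared, 5 from conditional knockout (cKO) and 5 from control mice, chosen by the side and the genotype that the labels give. Each library came from a different mouse. The ganglia, which hold the cell bodies of the sensory neurons and the glia, vessels and connective tissue around them, were taken at lumbar levels 4 to 6 from male mice 1 day after the sciatic nerve of the other side had been cut. The contralateral ganglia are therefore those of injured animals and not of naive ones. The cKO mice were Ahr fl/fl Thy1CRE-ERT2/EYFP, that is, they carried 2 floxed alleles of Ahr and a Cre recombinase that tamoxifen switches on in cells with an active Thy1 promoter. The controls were Ahr f/f or f/+ without Cre. Every mouse of both genotypes had received tamoxifen at 100 mg/kg on each of 5 days at 17 weeks of age, 4 weeks before the nerve was cut, and tissue was collected between 2 and 4 hours after lights on (ZT2 to ZT4). One label field names a spinal cord injury at 1 day, while the protocol describes the sciatic nerve, and the protocol was followed. Recombination was directed at Thy1-expressing cells whereas RNA of the whole ganglion was sequenced, so cells outside the Cre lineage contribute to every value.

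The aryl hydrocarbon receptor is a ligand-activated transcription factor of the basic helix-loop-helix PAS family. Bound to a ligand it enters the nucleus, pairs with Arnt, binds DNA at a short core sequence and switches on enzymes of foreign-compound metabolism such as Cyp1a1 and Cyp1b1, along with its own repressor Ahrr. In injured sensory neurons a different set of factors, among them Jun, Atf3, Sox11 and Stat3, is known for driving genes of axon regrowth.

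Expression is given as counts in each 1e6 counts of a library (CPM), scaled by the TMM method, and a gene was called where its adjusted p in edgeR's quasi-likelihood test was under 0.05. The contralateral libraries held 76.2 to 117 M counts (M, mega), with 82.2 to 117 M in control and 76.2 to 87.2 M in cKO libraries. Over the 20 pairs of libraries within a group, chi-square divided by its degrees of freedom ran from 6.73 to 66.4, well above the value of counting noise. The marker genes of sensory neurons summed to 16690 to 18920 CPM in control and 16270 to 19040 CPM in cKO libraries, and none of the markers in the 16 cell type lists was at 0 in all contralateral libraries. In the principal components of these 10 libraries the first held 29.3% of the variance and the second 14.2%. Skeletal muscle genes had the largest weights in the first. On it cKO H64, H95 and H100 scored 29, 38 and 58.3, above every control (at most 26.2), while H61 (-8.73) and H99 (-40.9) did not. H64, H95 and H100 also held the most fibroblast transcripts (described below). On the second component cKO H61, H64, H95 and H99 lay above every control and H100 below, so the genotypes were split in part. P-values measure the spread between separate mice.

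The targeted gene was measured first. Ahr (ENSMUSG00000019256.18) had 21.3, 24.6, 23.8, 27.2 and 24.4 CPM in control mice H62, H63, H65, H96 and H97, in this order, and 20.4, 20.98, 20.5, 20.4 and 19.5 CPM in cKO mice H61, H64, H95, H99 and H100, the orders used for all values per library here. All 5 cKO libraries lay below all 5 control libraries, and the closest pair of libraries, cKO H64 and control H62, differed by less than the range of the control libraries. The means were 24.2 ± 2.10 and 20.4 ± 0.536 CPM (SD, n = 5), and the two-sided exact permutation test gave p = 0.00794, the smallest that 5 against 5 can give. Ahr was not called by edgeR's quasi-likelihood test across all genes, where it had a log2 fold change of -0.25 (SE 0.0661, adjusted p 0.103). Leaving out cKO H99 gave a call (-0.23, edgeR adjusted p 0.0407), and so did DESeq2 (-0.24, adjusted p 0.0216). The counts are of whole genes over all cells of the ganglion: fewer cells with the transcript and less transcript per cell cannot be told apart in such samples, for Ahr or for any gene that follows, and the excised part of the gene was not analysed here.

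Between genotypes 21 of 28564 tested genes were called on the uninjured side (0.0735%), 7 of them higher and 14 lower in cKO libraries. The called genes with a known product were Thy1, Adamtsl1, Cdk2, Nt5dc2 and Pygo1 among the higher ones. Cadps, Serpina10, Pde4c, Htr1a, Vgf, Plk3, Ddhd1, F2rl2, Jun, Syt9, Tmem79, Nup93 and Hs2st1 were lower. The fit held all 20 libraries, so the ipsilateral ones entered the estimate of spread. Fitted on the 10 contralateral libraries alone, edgeR called 2 genes, Cadps and Thy1. DESeq2 on all 20 libraries called 1041 genes (667 higher, 374 lower), and edgeR without cKO H99 called 3078 (1677 higher, 1401 lower), so both the count and the balance of directions depended on the fit. With both libraries of a mouse treated as a replicate block (limma-voom), 17 of the 21 genes were called, and Serpina10, Hs2st1, Plk3 and Gm11379 were not (adjusted p 0.0543 to 0.0805). In each of the 21 genes the 5 cKO libraries lay wholly beyond the 5 control libraries, which was also true of 435 of all tested genes (1.52%). Most differences were small: 2 of the 21, Cadps and Gm11379, reached 2-fold. Gm11379 did so at a low level, with a control mean of 0.174 CPM against a cKO mean of 0.610 CPM. The calls with the smallest changes were Hs2st1 (-0.15 on the log2 scale), Nup93 (-0.17) and Tmem79 (-0.19). Over all tested genes the median log2 fold change was -0.01, and 45.8% of genes were higher in cKO libraries. At an unadjusted p under 0.05 there were 5006 genes (17.5%), of which 2285 were higher (8.0% of tested genes) and 2721 lower in cKO libraries (9.53%). These last shares are the background for the lists below. Lists and members were chosen with earlier results of these data known, so their counts are descriptions and not tests.

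**Figure D1:**
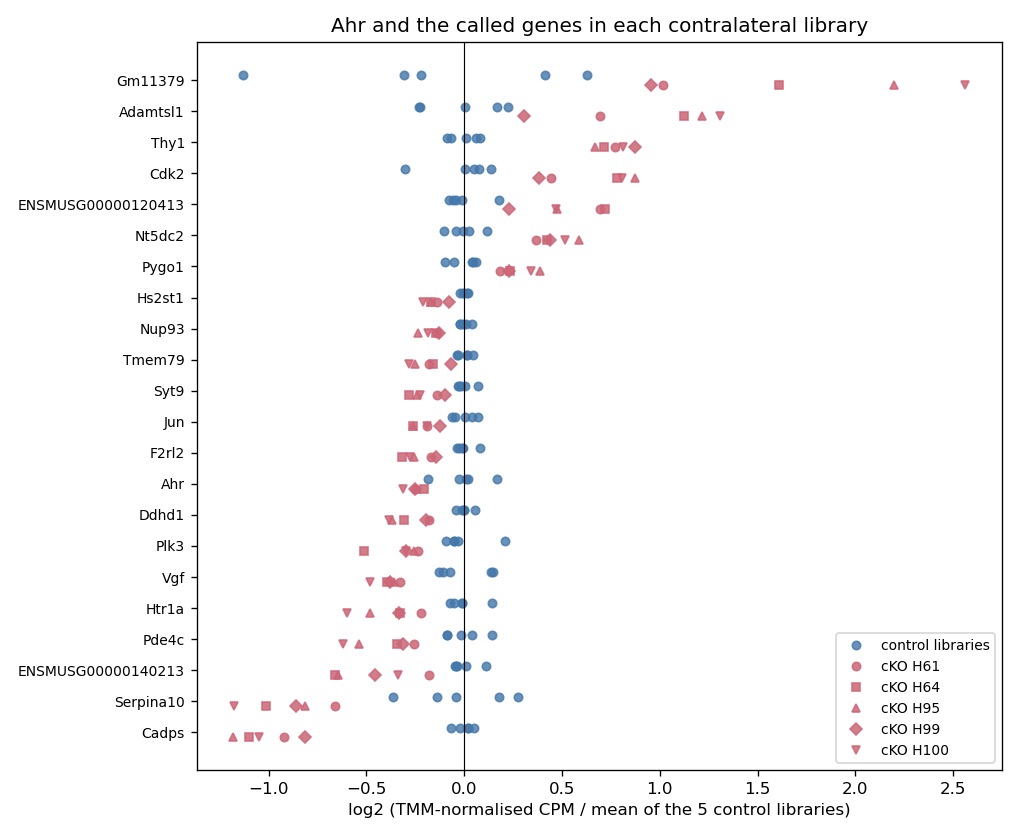
Level of Ahr and of the 21 called genes in each contralateral library, as the log2 ratio of its TMM-normalised CPM to the mean of the 5 control libraries (x axis); rows are genes, circles above the row are control libraries and symbols below it are cKO libraries, 1 shape per mouse. Control and cKO points do not overlap in any row.

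Cadps and Thy1 changed most by the test. Cadps (ENSMUSG00000054423.16), the calcium-dependent activator protein that primes dense core vesicles for release, had 575, 610.0, 610.4, 592 and 623 CPM in control and 318, 281, 266, 343 and 291 CPM in cKO libraries. The cKO libraries were more spread than the controls, with the 3 lowest values in H64, H95 and H100, and the highest of them was far below the lowest control. The mean fell by 50.2%, with a log2 fold change of -1.01 (SE 0.0506, edgeR adjusted p 2.746e-10, lower in 5 of 5 libraries). Thy1 (ENSMUSG00000032011.6), a cell surface glycoprotein of neurons that also marks T cells and some fibroblasts, had 602, 679, 644, 611 and 669.6 CPM in control and 1093, 1051, 1018, 1176 and 1126 CPM in cKO libraries. The lowest cKO library was well above the highest control, and the mean rose by 70.4% (log2 fold change 0.77, SE 0.0493, edgeR adjusted p 1.386e-08, higher in 5 of 5 libraries). All cKO mice and no control mice carry the Thy1-driven transgene, so counts from the endogenous gene and from any Thy1 sequence in the transgene cannot be told apart in a table of counts per gene. The same holds for the loss of Ahr and the presence of the transgene as such, for each of the 21 genes.

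Along with Cadps, 2 further called genes belong to the release of dense core vesicles. Vgf, the precursor of secreted neuropeptides that neurotrophins induce, had 161, 138, 160.1, 135 and 133 CPM in control and 116, 111, 114, 112 and 104 CPM in cKO libraries. The cKO libraries spanned a narrow range below the lowest control, and the fall was 23.6% (log2 fold change -0.39, edgeR adjusted p 0.00483). Syt9, a synaptotagmin that senses calcium at release, had 209 to 224 CPM in control and 176 to 199.7 CPM in cKO libraries (-0.20, edgeR adjusted p 0.0142). Of the 30 tested genes of vesicle priming and dense core granules, these 3 fell and none rose, where 0.0735% of all genes were called. As this list, like the others, was chosen with earlier results known, the count is no test of enrichment. Another 8 were lower and 2 higher at an unadjusted p under 0.05, which makes 11 lower of 30, beside 9.53% of all genes, and the median log2 fold change of the list was -0.08. The list summed to 9207 to 9932 CPM in control and 9001, 8326, 8486, 9718 and 8870 CPM in cKO libraries, lowest in H64, H95 and H100, the 3 libraries with the most fibroblast transcripts (described below), while H99 lay within the control range. Among those not called were Unc13c, a priming factor of the Munc13 family (-0.18, edgeR adjusted p 0.103), Unc13a (-0.20) and the granin-like Scg3 (-0.19). Cadps2, the second member of the Cadps family, had a log2 fold change of -0.12 (edgeR adjusted p 0.373), and its groups overlapped.

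Htr1a, the serotonin 1A receptor, which inhibits the synthesis of cyclic AMP, had 15.7, 16.1, 15.5, 17.9 and 16.1 CPM in control and 13.9, 12.9, 11.7, 12.9 and 10.7 CPM in cKO libraries. The highest control stood apart from the other 4, and the cKO libraries were all lower than any control (log2 fold change -0.39, SE 0.0575, edgeR adjusted p 0.00634). Pde4c, a phosphodiesterase that breaks down cyclic AMP, had 9.53, 10.01, 9.53, 11.2 and 10.4 CPM in control and 8.46, 7.996, 6.98, 8.15 and 6.59 CPM in cKO libraries, with a gap between the groups smaller than the spread of either (-0.41, edgeR adjusted p 0.0254). In the list of cyclic AMP and serotonin signalling these were the 2 called members of 43, both lower. Counting them, 12 members were lower and 1 higher at an unadjusted p under 0.05, beside 9.53% and 8.0% of all genes, with a median of -0.07. The sums of this list were again lowest in H64, H95 and H100 among the cKO libraries. The serotonin 2A receptor gene Htr2a had no overlap between groups (20.03 to 22.9 CPM in control, 17.8 to 19.9 CPM in cKO libraries) but was not called (-0.21, edgeR adjusted p 0.121). The phosphodiesterase gene Pde3b was lower by less (-0.10, edgeR adjusted p 0.155), and its groups overlapped.

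Jun and Plk3 joined Vgf among immediate early genes, those that neurons switch on within minutes to hours of activity or stress. Jun, a subunit of the AP-1 transcription factor, had 108, 106, 98.3, 103 and 99.3 CPM in control and 89.97, 85.6, 85.7, 94.4 and 90.2 CPM in cKO libraries. The groups were separated by a few CPM and the difference was -0.21 (SE 0.0362, edgeR adjusted p 0.0278). Plk3, a stress-responsive polo-like kinase, had 18.6, 15.8, 15.5, 15.1 and 15.5 CPM in control and 13.7, 11.3, 13.5, 13.1 and 13.1 CPM in cKO libraries (-0.32, edgeR adjusted p 0.0359). Of the 23 tested immediate early genes, 3 fell and 0 rose, beside 0.0735% of all genes called, and the call of Plk3 was lost with the replicate block (limma-voom adjusted p 0.0636). At an unadjusted p under 0.05 there were 7 lower and 1 higher, with a median of -0.14. The neurotrophin gene Bdnf was among the 7 (-0.23, edgeR adjusted p 0.135), with overlapping groups. Of 31 genes of axon injury and regrowth, Jun was the 1 called member. At an unadjusted p under 0.05 there were 11 lower, among them Stat3 (413 to 371 CPM as means, -0.15), Atf3 (11.3 to 9.23 CPM, -0.30) and the leukaemia inhibitory factor receptor gene Lifr (-0.24), none of which passed edgeR's adjusted threshold (0.103, 0.120 and 0.121). Stat3 and Lifr had their 3 lowest values in H64, H95 and H100, the libraries with the most fibroblast transcripts, and both were within the control range in H99. The list had a median of -0.08 and 1 member higher at an unadjusted p under 0.05.

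The remaining called genes have no list in common. Ddhd1, a phospholipase that acts on phosphatidic acid, had 91.9, 88.7, 87.9, 86.2 and 88.6 CPM in control and 78.1, 71.7, 68.6, 77.4 and 67.9 CPM in cKO libraries (-0.29, SE 0.0389, edgeR adjusted p 0.00287). Nt5dc2, a gene of the 5'-nucleotidase domain family, had 5.23, 4.49, 4.81, 4.70 and 4.91 CPM in control and 6.21, 6.47, 7.26, 6.53 and 6.90 CPM in cKO libraries (0.47, SE 0.0606, edgeR adjusted p 0.00182). In both genes the groups were separated by more than the spread of the controls. F2rl2, which encodes a protease-activated receptor, fell by 0.23 on the log2 scale. Serpina10, a protease inhibitor, also fell (-0.89), from an already low control mean of 0.897 CPM to a cKO mean of 0.483 CPM. The same direction was found for Tmem79 (-0.19), the nuclear pore gene Nup93 (-0.17) and the heparan sulfate sulfotransferase gene Hs2st1 (-0.15). All of these were called by edgeR. Adamtsl1, which encodes a secreted matrix protein, had 4.77, 5.54, 4.05, 4.04 and 5.33 CPM in control and 7.69, 10.3, 11.03, 5.87 and 11.7 CPM in cKO libraries (0.98, edgeR adjusted p 0.0260). Its 3 highest libraries were again H64, H95 and H100. Cdk2, a cell cycle kinase, rose by 0.67 and showed the same order, with 2.38 to 2.54 CPM in those 3 libraries against 1.81 and 1.89 CPM in H99 and H61. In 11 of the 21 called genes these 3 libraries were the cKO libraries farthest from the controls: Cadps, Ddhd1, Syt9, F2rl2, Pde4c, Nup93, Hs2st1, Pygo1 and Gm11379 besides Adamtsl1 and Cdk2. Pygo1, a cofactor of Wnt signalling, rose by 0.28. Of the genes without a known product, Gm11379 (1.82) and ENSMUSG00000120413 (0.53) rose and ENSMUSG00000140213 fell by 0.44 on the log2 scale. In the RefSeq annotation Cdk2 overlaps Pmel, Nt5dc2 overlaps Stab1, F2rl2 overlaps Iqgap2 and Plk3 overlaps Tctex1d4, and Cadps, Ddhd1, Pde4c, Adamtsl1, Nup93 and Hs2st1 overlap predicted genes, pseudogenes or microRNA genes, and how the authors' counting treated shared bases and strand is not given in the sources used here, so the values of these 10 genes may hold reads of their neighbours. The 3 called genes without a known product have no entry there.

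Promoters are shown for the called genes whose calls held whichever contralateral library was left out and which have an entry in the RefSeq promoter table (GRCm38.p6), 250 bases before to 50 after the start. Thy1 and Vgf, which also held, have no entry. The capitals mark GCGTG, the core that the receptor and Arnt bind, on either strand (read as CACGC on the other). The Cadps promoter (chr14:12823030-12823329, reverse strand) and that of Htr1a (chr13:105443443-105443742, forward strand) hold none, and Ddhd1 (chr14:45658094-45658393, reverse strand) and the first of the 2 Nt5dc2 promoters (chr14:31130839-31131138, forward strand) hold 1 each.
Cadps: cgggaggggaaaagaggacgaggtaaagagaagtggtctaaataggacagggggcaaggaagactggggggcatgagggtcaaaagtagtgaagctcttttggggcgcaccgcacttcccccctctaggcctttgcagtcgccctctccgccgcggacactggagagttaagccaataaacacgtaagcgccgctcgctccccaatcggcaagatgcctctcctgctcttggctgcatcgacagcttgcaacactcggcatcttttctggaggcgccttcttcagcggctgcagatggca
Htr1a: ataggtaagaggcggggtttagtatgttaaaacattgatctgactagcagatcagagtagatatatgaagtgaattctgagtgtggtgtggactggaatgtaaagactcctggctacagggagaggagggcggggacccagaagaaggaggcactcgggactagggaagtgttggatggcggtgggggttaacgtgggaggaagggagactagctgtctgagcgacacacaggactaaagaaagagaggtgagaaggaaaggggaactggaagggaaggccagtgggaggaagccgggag
Ddhd1: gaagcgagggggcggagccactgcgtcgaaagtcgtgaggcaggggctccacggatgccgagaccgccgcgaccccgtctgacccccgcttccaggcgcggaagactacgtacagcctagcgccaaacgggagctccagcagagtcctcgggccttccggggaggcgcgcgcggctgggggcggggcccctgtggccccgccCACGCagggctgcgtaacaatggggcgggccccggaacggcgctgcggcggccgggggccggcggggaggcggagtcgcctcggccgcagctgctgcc
Nt5dc2: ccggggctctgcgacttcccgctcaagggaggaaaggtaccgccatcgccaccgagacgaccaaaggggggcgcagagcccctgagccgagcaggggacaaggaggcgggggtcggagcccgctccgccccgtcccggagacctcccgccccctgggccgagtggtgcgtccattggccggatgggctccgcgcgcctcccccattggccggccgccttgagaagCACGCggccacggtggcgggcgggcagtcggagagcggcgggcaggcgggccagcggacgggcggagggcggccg
Of the 21 called genes 14 matched the table, with 16 promoters. GCGTG was found in 5 of the 16 (31.2%) and in 32.4% of all 32851 promoters of this length. The cyclic AMP response element TGACGTCA was in 0 of 16 and in 1.79% of all promoters. The AP-1 element TGANTCA, which shares its first and last letters with TGACGTCA and can begin with the end of GCGTG, was in 1 of 16 (6.25%), that of F2rl2, and in 7.81% of all promoters. These are matches of letters within this window.

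In the receptor's own pathway 0 of 19 tested members were called. At an unadjusted p under 0.05 there were 3 higher and 1 lower, beside 8.0% and 9.53% of all genes, the lower one being Ahr. Cyp1b1, an oxidising enzyme that the receptor induces in many tissues, had 50.1, 53.9, 48.9, 47.9 and 53.6 CPM in control and 54.4, 69.4, 73.1, 49.5 and 72.1 CPM in cKO libraries (0.32, edgeR adjusted p 0.103). H99 lay within the control range, H61 just above it and the other 3 cKO libraries further above. Aldh3a1, an aldehyde dehydrogenase of the same battery, had 1.36, 0.538, 0.437, 0.398 and 0.349 CPM in control and 0.727, 2.05, 2.996, 0.579 and 2.69 CPM in cKO libraries (1.55, edgeR adjusted p 0.124), and control H62 lay above cKO H61 and H99. The quinone reductase gene Nqo1 differed by 0.12 (edgeR adjusted p 0.274). The 3 cKO libraries in which Cyp1b1 and Aldh3a1 were high are H64, H95 and H100. Without them the log2 fold changes were 0.03 and 0.08, and in a fit with the fibroblast score as a term they were 0.05 and -0.14. Cyp1a1 stayed near the lower end of detection, with means of 0.295 and 0.315 CPM. Ahrr (0.07), Tiparp (-0.05) and the partner genes Arnt (0.07) and Arnt2 (-0.03) had overlapping groups.

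The fibroblast content of the libraries differed between mice. The 14 fibroblast markers, matrix genes such as Col1a1, Dcn and Pi16, summed to 2043, 1608, 1232, 1242 and 1289 CPM in control and 1558, 3323, 3059, 1437 and 2770 CPM in cKO libraries. H64, H95 and H100 were above every control, and H61 and H99 were within the control range, so the groups overlapped. None of the 14 was called, 12 were higher at an unadjusted p under 0.05 (beside 8.0% of all genes), and the median log2 fold change was 0.86, against 0.04 between genotypes on the injured side. Pi16, a marker of fibroblasts around vessels and nerves, had 15.8, 14.5, 12.1, 7.31 and 8.36 CPM in control and 25.8, 71.2, 43.2, 10.6 and 47.4 CPM in cKO libraries (1.77, edgeR adjusted p 0.0760). Fibronectin (Fn1) had 145, 42.5, 32.3, 23.6 and 40.9 CPM and 93.8, 228, 331, 57.95 and 361 CPM (1.92, edgeR adjusted p 0.115), with control H62 above cKO H61 and H99. The same 3 cKO libraries led in both genes.

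Collagens and tendon and cartilage markers were also highest in H64, H95 and H100. The 20 collagen genes summed to 818 to 1502 CPM in control and 1032 to 2686 CPM in cKO libraries. All 20 were higher in the cKO mean, 13 at an unadjusted p under 0.05 and 0 called, with a median of 0.77. Col8a2 had 24.1, 18.1, 8.35, 9.78 and 14.6 CPM in control and 30.6, 75.9, 73.4, 14.7 and 72.3 CPM in cKO libraries (1.83, edgeR adjusted p 0.0893), and H61 and H99 were again the lowest of the cKO libraries. Markers of tendon and cartilage had 6 of 15 higher at an unadjusted p under 0.05. Chad, a cartilage matrix protein, had 3.67, 1.31, 1.15, 0.946 and 2.49 CPM in control and 5.08, 22.7, 36.03, 2.65 and 10.1 CPM in cKO libraries (3.01, edgeR adjusted p 0.0548), and Comp, a matrix protein of tendon and cartilage, 16.9 to 20.4 CPM and 19.1 to 71.5 CPM (1.30, edgeR adjusted p 0.0548). Markers of meninges and perineurium, the sheaths of ganglion and nerve, had 8 of 12 higher at an unadjusted p under 0.05 and a median of 1.35. Aldh1a2, a retinoic acid-forming enzyme of the meninges, had 11.4, 5.59, 4.37, 2.54 and 5.30 CPM in control and 5.85, 11.7, 35.04, 4.41 and 54.4 CPM in cKO libraries (1.93, edgeR adjusted p 0.141), with the high values in H95 and H100 rather than H64. The meningeal sum of H64 lay below that of control H62. Bone cell markers had 2 of 10 higher at an unadjusted p under 0.05 (median 0.29), and their sum was lowest among cKO libraries in H100. None of these lists had a called member.

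**Figure D2:**
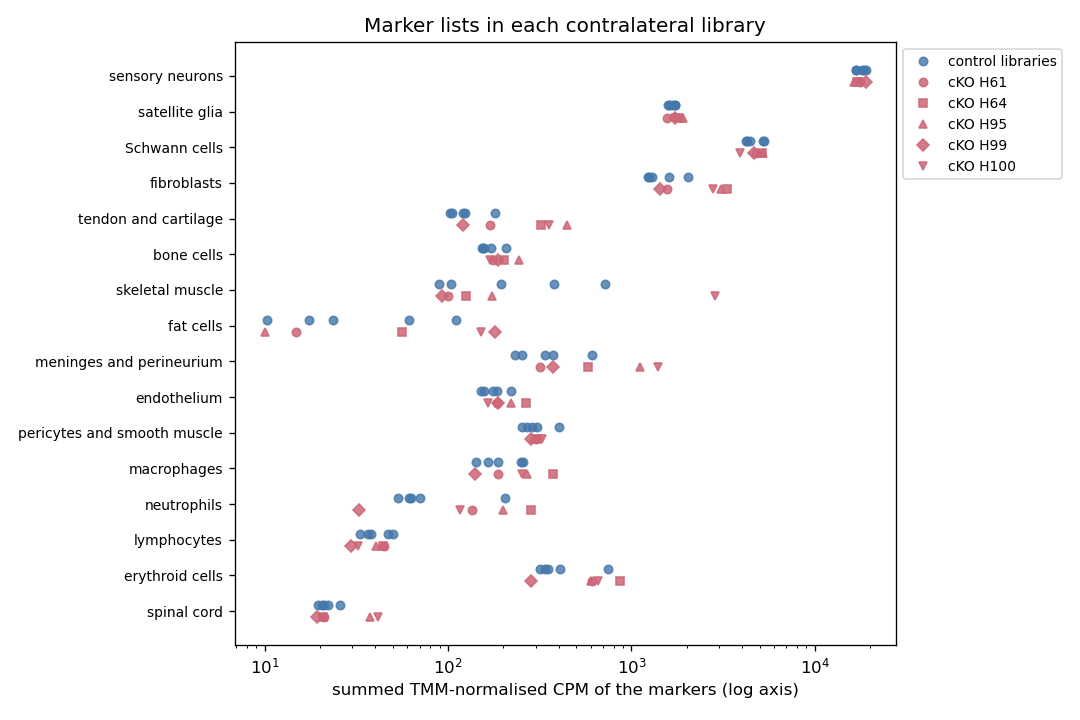
Summed TMM-normalised CPM of each of the 16 cell type marker lists in each contralateral library (x axis, log scale); circles above the row are control libraries and symbols below it are cKO libraries, 1 shape per mouse. Sensory neuron, satellite glia and Schwann cell sums overlap between genotypes, cKO H64, H95 and H100 lie above the controls for fibroblasts and for tendon and cartilage, and cKO H100 is alone at the right for skeletal muscle.

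By the ratio of the highest to the lowest contralateral library, skeletal muscle transcripts varied most of the 16 marker lists. The 18 markers, 17 of them tested, summed to 718, 104, 378, 195 and 89.04 CPM in control and 99.6, 125, 174, 92.6 and 2854 CPM in cKO libraries. H100 held several times the sum of the next library, control H62, while the other 4 cKO libraries were within the control range. In the low libraries most of the sum was Pvalb, a calcium buffer of fast muscle that proprioceptive neurons also express, with 70.2 CPM in control H97 and 80.5 CPM in cKO H99. Without Pvalb the sums were 644, 36.3, 291, 126 and 18.8 CPM in control and 28.6, 34.4, 105, 12.1 and 2702 CPM in cKO libraries, with H99 below every control. Myh4, a fast muscle myosin, had 89.8, 2.18, 30.9, 8.69 and 1.47 CPM in control and 1.45, 1.15, 18.4, 1.02 and 541 CPM in cKO libraries, and skeletal actin (Acta1) had 433 CPM in H100 against 1.46 to 106 CPM in the other 9. No muscle marker had an unadjusted p under 0.05 between genotypes. The list's median was 1.26 on the uninjured side, where H100 enters the cKO mean, and -2.35 on the injured side, both with overlapping groups. Fat cell markers summed to 10.2 to 110 CPM (control) and 9.98 to 180 CPM (cKO), with 0 of 8 at an unadjusted p under 0.05.

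Neuron and glia markers differed less between the libraries. Of 24 sensory neuron markers 0 were called and 6 were lower at an unadjusted p under 0.05, none higher, with a median of -0.03. The nociceptor sodium channel gene Scn10a had 977, 989, 1029, 948 and 1100 CPM in control and 930.4, 781, 768, 1053 and 842 CPM in cKO libraries (-0.20, edgeR adjusted p 0.138). Its lowest values were in H64, H95 and H100, and H61 and H99 were within or close to the control range. The neurotrophic receptor gene Ret also had its 3 lowest values in H64, H95 and H100 (-0.19, edgeR adjusted p 0.124), with H61 below every control as well. The neurofilament genes Nefm, Nefl and Nefh, the most abundant of the list, overlapped between groups. Satellite glia markers, led by Apoe, had sums of 1572 to 1728 CPM in control and 1562 to 1900.0 CPM in cKO libraries with 0 of 7 at an unadjusted p under 0.05. Schwann cell markers, among them the myelin gene Mbp, summed to 4225 to 5292 and 3913 to 5209 CPM, with 1 of 12, Scn7a, lower at that level (-0.16).

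Blood and vessel markers gave no call either. Neutrophil markers summed to 203, 62.7, 53.6, 70.4 and 60.98 CPM in control and 135, 284, 199, 32.5 and 115 CPM in cKO libraries. H64 was above all 5 controls, H61, H95 and H100 were above all but H62, and H99 was the lowest of the 10, with 0 of 10 markers at an unadjusted p under 0.05 (median 0.74). Macrophage markers had 1 of 14 higher at that level, Lyve1 (0.56, edgeR adjusted p 0.134), with sums of 143 to 255 and 140 to 375 CPM. Haemoglobin and other erythroid markers summed to 316 to 747 and 283 to 867 CPM with 0 of 7. Endothelial markers had 2 of 9 higher, Cdh5 (0.49) and Egfl7 (0.14), and pericyte and smooth muscle markers 1 higher and 1 lower of 9, Pdgfrb (0.26) and Rgs5 (-0.15). Of 12 lymphocyte markers 1 was lower, the T cell gene Cd3d (-1.44), which was at 1.66 CPM in control H96 and at most 0.613 CPM in the other 9 libraries. Spinal cord markers had 1 of 6 higher, Gjb6 (2.20), with its high values in H95 and H100, the libraries with the most meningeal transcripts.

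The 21 calls were also fitted without these libraries or with content scores as covariates. The libraries left out together were chosen after seeing the data, and loss of a call and loss of power cannot be told apart there. The fibroblast score was 6.772, 6.625 and 6.479 in cKO H64, H95 and H100, against at most 5.894 in contralateral controls. As a covariate it therefore shares part of the genotype difference. Without H64, H95 and H100, the 3 libraries richest in fibroblast transcripts, 2 genes were called by edgeR, Cadps (-0.87) and Thy1 (0.82). All 21 genes kept their direction, and the median ratio of the new to the original log2 fold change was 0.714, with only 2 cKO libraries left. With the fibroblast score, the mean log2 CPM of the markers, as a covariate the same 2 genes were called (-0.88 and 0.84), all 21 kept their direction and the median ratio was 0.828. Under that covariate the log2 fold changes were -0.42 for Vgf (edgeR adjusted p 0.109), -0.29 for Htr1a (0.510), -0.22 for Ddhd1 (0.387), 0.38 for Nt5dc2 (0.387) and -0.18 for Jun (0.612). Since the score is made of the fibroblast markers, 4 collagens among them, the fibroblast and collagen lists are not read under it. With the muscle score as a covariate there were 116 calls, 55 higher and 61 lower, which held all 21 genes. Without H100 and H62, the libraries richest in muscle transcripts, there were 13 calls, of which 7 were among the 21. All 21 kept their direction there, and the median ratio was 0.932. What part fibroblast or muscle content has in each difference beyond these values was not tested.

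Single libraries moved the number of calls. Leaving out control H62 gave 54 calls, H63 7, H65 9, H96 10 and H97 8. Leaving out cKO H61 gave 468 calls, H64 9, H95 6, H99 3078 and H100 6. The libraries whose loss raised the count most, H61 and H99, are the 2 cKO libraries with fibroblast sums in the control range. Of the 3078 genes called without H99, 1677 were higher and 1401 lower, and 390 were higher and 13 lower by at least 2-fold. They included 8 of 14 fibroblast markers and 11 of 20 collagens, all higher, beside 5.80% of the 28903 genes tested in that fit, and 11 of 30 genes of vesicle priming and dense core granules, all lower, beside 4.85%. Called in each of the 10 fits were Cadps, Thy1, Nt5dc2, Ddhd1, Vgf and Htr1a, with leave-one-out log2 fold changes of -1.04 to -0.97, 0.75 to 0.80, 0.44 to 0.51, -0.30 to -0.26, -0.41 to -0.34 and -0.42 to -0.33. The call of Syt9 was lost without H63, H95 or H100, that of Pygo1 also without H96, and that of Serpina10 without H63, H97, H64, H95 or H100. Cdk2 and ENSMUSG00000120413 were called in 4 of the 10 fits, in both cases without H62, H61 or H99 and, respectively, without H96 or H63. The other 10 genes, Jun, Plk3, Pde4c and Adamtsl1 among them, were called in 3 of the 10 fits, those without H62, H61 or H99.

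**Figure D3:**
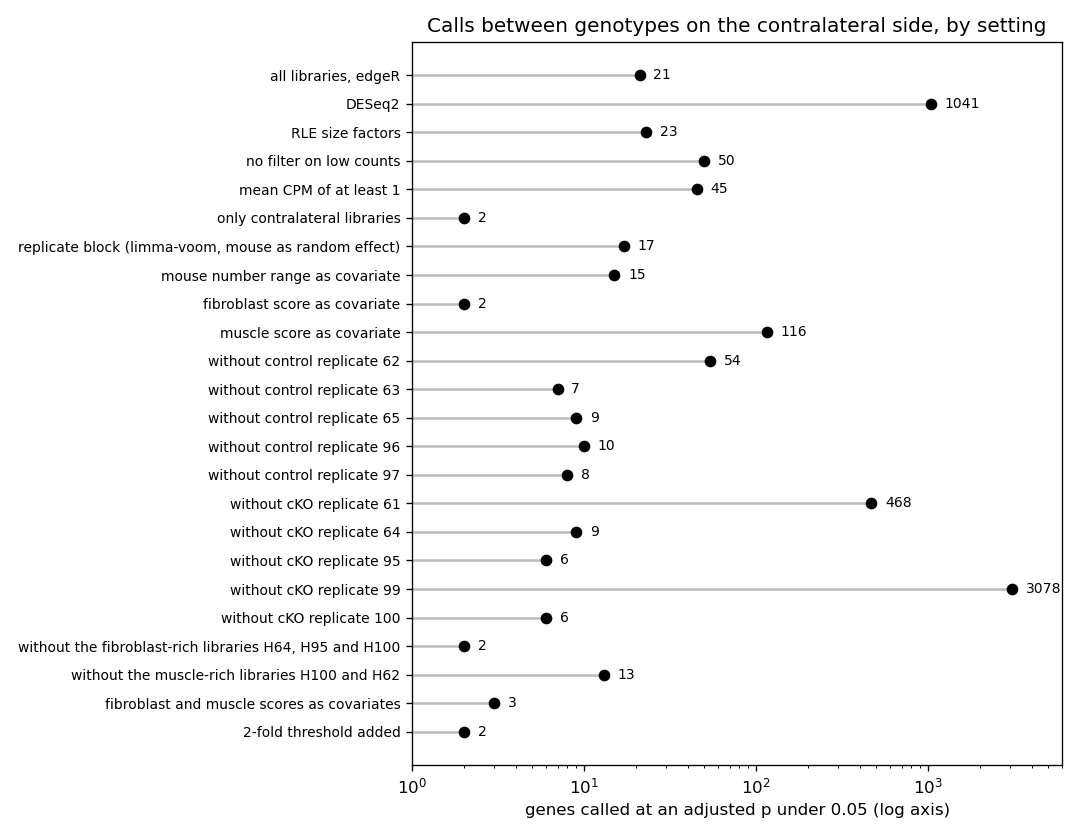
Number of genes called between genotypes on the uninjured side at an adjusted p under 0.05 (x axis, log scale) under each setting of the fit (y axis). The point for all libraries is at 21, the counts without 1 library run from 6 to 3078, and the fits that remove or adjust for fibroblast-rich libraries give 2 or 3 calls.

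Mouse numbers fall in 2 ranges, the 60s (3 control and 2 cKO mice) and 95 and above (2 control and 3 cKO mice), which the labels do not explain. All 21 genes had the same direction in both ranges, for example 0.74 and 0.79 for Thy1, 0.39 and 0.52 for Nt5dc2, -0.43 and -0.29 for Vgf, and -0.23 and -0.54 for Htr1a. With the range as a covariate 15 genes were called, 14 of them among the 21. The calls of 7 of the 21 were lost, while all 21 kept their direction with a median ratio to the original log2 fold change of 0.983.

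Genes beside Ahr, Thy1 and Cadps along the chromosome were compared for context, 5 tested genes on each side in the RefSeq gene order of GRCm38.p6. Of these 30 neighbours 0 were called by edgeR, and 8 had an unadjusted p under 0.05, beside 0.0735% and 17.5% of all tested genes. At such a share of calls, 0 of 30 says little about the neighbours. Fezf2, next to Cadps, was at 0 CPM in all contralateral libraries and Gm36855, near Thy1, at means of 0.0168 and 0.0193 CPM, so neither bears on a difference on this side. Around Cadps the log2 fold changes ran from -0.07 to 0.34, and Synpr, a synaptic vesicle protein gene that is abundant in these libraries, differed by -0.06. Around Thy1 they ran from -0.37 to 0.69, with Nectin1, a cell adhesion gene, at -0.32 and the overlapping genes C1qtnf5 and Mfrp at 0.69 and 0.67, whose reads may be shared. Around Ahr they ran from -0.18 for Hdac9 to 1.04 for Twist1, a mesenchymal transcription factor gene.

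On the injured side the same comparison of genotypes gave 2 called genes (0.00700%), Thy1 (0.63) and Cadps (-0.89). The other 19 genes called on the uninjured side had an edgeR adjusted p of 1 there, with log2 fold changes of 0.02 for Vgf, -0.01 for Htr1a, -0.01 for Jun, 0.15 for Nt5dc2 and -0.08 for Ddhd1. Vgf had 405 to 441 CPM in control and 381 to 459.6 CPM in cKO libraries of the injured side, where the groups overlapped. The difference between the sides was tested by the interaction of genotype and side. It called 0 of 28564 genes in edgeR, with a smallest adjusted p of 0.485 and 2799 genes at an unadjusted p under 0.05, while DESeq2 called 11. An effect on 1 side that differed from that on the other was therefore not shown by edgeR for any gene, and the 3 cKO libraries with the most fibroblast transcripts enter this test as well.

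**Figure D4:**
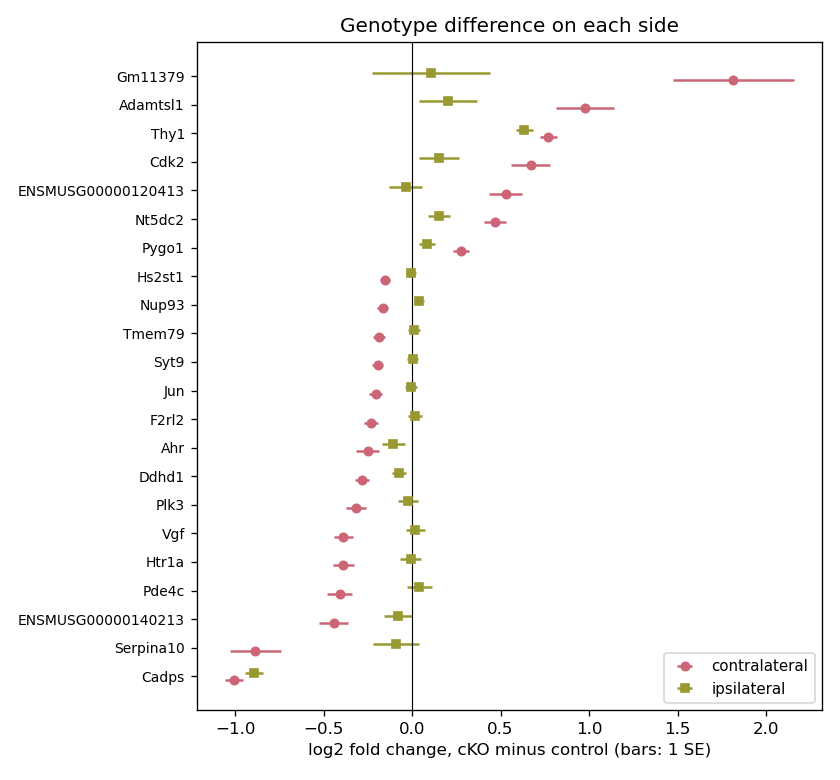
Log2 fold change, cKO minus control, of Ahr and the 21 called genes on the uninjured (circles) and injured (squares) side, with bars of 1 SE from the edgeR fit (x axis); rows are genes. Thy1 and Cadps have similar values on both sides, and the squares of the other genes lie nearer to 0 than the circles.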

How the data were processed

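mRNA was sequenced from contralateral and ipsilateral ganglia of 10 mice (stranded mRNA libraries, paired 150 bp reads, per the labels' protocols). The deposited table holds whole-number counts per gene and library, made by the authors without normalization. HISAT2 and Picard and the builds mm10 and mm39 are named in the submitters' processing notes, while the annotation, the counting program and its strand setting are not given in the sources used here, so the coordinates printed are those of RefSeq promoters on GRCm38.p6. The deposited FPKM table was not used here. Gene symbols were matched by identifier for 23401 of 28564 tested genes, which with untested ones hold 98.1% of the contralateral counts.

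Counts were tested in R 4.3.3 with edgeR 4.0.16 (TMM, robust quasi-likelihood test) in 1 fit of all 20 libraries with 4 group means, after filterByExpr (minimum count 10, minimum total 15), with Benjamini-Hochberg adjustment over all tested genes. The procedure was tested on simulated data. The 29 gene lists (16 of markers, 13 of pathways) are described by counts and medians only. Members and lists were chosen with earlier results of these data known. Named were Ahr, all called genes with a symbol, the list members with the lowest p, and the genes that are most abundant in each marker list; called genes without a symbol and further list members were chosen after their values were seen.

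Both libraries of a mouse share its number, which pairs them as the same animal. Their deviations from the group means correlated with a median of 0.186 over 10 mice (-0.0546 to 0.361), with 7 above 0.1. The 2 genotypes share no mouse. Alternatives were DESeq2 1.42.0, RLE size factors, a filter at a mean CPM of 1 or none at all, only the contralateral libraries, limma-voom (limma 3.58.1) with mouse as a replicate block, the range of mouse numbers, fibroblast or muscle score as a covariate, a 2-fold threshold, and each contralateral library left out. Leaving out the fibroblast-rich or muscle-rich libraries together and using both scores were added after seeing the data. Library depth was 76.2 to 117 M counts. Reads without molecular identifiers are not independent molecules, and precision was set by the spread between the libraries of each group. The main fit had no term for the mouse.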

Additional observations from a re-analysis of the deposited data

Results flagged for a closer look

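In each group of 5 contralateral libraries, the gap of the highest or lowest library to its nearest neighbour was divided by the range of the group (Dixon's ratio, critical value 0.71). It was exceeded in 34 of 318 groups of values. For independent, normally distributed values chance gives about 1 in 20, or 15.9. Here list sums stood beside their own members, and some tissue marker genes were added by choice. The 34 can therefore not be weighed against 15.9. Of the 34, 22 came from control H62, 5 from cKO H100 and 3 from control H96.

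Control H62 stood apart for the called genes F2rl2 (0.72) and Plk3 (0.81). In connective tissue and bone it did so for Fn1 (0.844), Ctsk (0.842), Col1a1 (0.741), Alpl (0.739), Ibsp (0.881) and the summed tendon and cartilage markers (0.721). In blood markers it did so for Retnlg (0.79), S100a9 (0.833), Ngp (0.888), S100a8 (0.959), the summed neutrophil markers (0.887), Hba-a2 (0.734), Hbb-bs (0.843), Hba-a1 (0.797) and the summed erythroid markers (0.793). The others were Aldh3a1 (0.813), Galr1 (0.855), Nupr1 (0.836), Egln3 (0.839) and Slc5a7 (0.813). In all of these H62 was the highest control library.

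The muscle values of cKO H100 stood apart for Acta1 (0.965), Ckm (0.967), Myh4 (0.968), Pvalb (0.735) and the summed muscle markers (0.97). Control H96 did so for Htr1a (0.728), Unc13c (0.817) and Npy2r (0.752). Control H63 was apart for ENSMUSG00000120413 (0.761), cKO H64 for Plk3 (0.757), cKO H95 for Ibsp (0.836) and cKO H99 for Cfd (0.712).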

How the results depend on the processing

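The 21 calls became 1041 with DESeq2 (667 higher, 374 lower, 20 of the 21 among them), 50 with no filter, 45 when the mean CPM had to reach 1, 2 with only the contralateral libraries (fewer samples), 2 with the fibroblast score as a covariate, 116 with the muscle score, 2 with a 2-fold threshold, 2 without H64, H95 and H100, 13 without H100 and H62, and 3 with both scores. Leaving out 1 library gave 6 to 3078. RLE size factors gave 23. The share of higher genes was 7 of 21, but 667 of 1041 with DESeq2, 37 of 54 without H62 and 364 of 468 without H61. With the replicate block (limma-voom, mice as random effects) 17 genes were called, all of them among the 21. The paired fit lost the calls of Serpina10 (-0.86), Hs2st1 (-0.15), Plk3 (-0.31) and Gm11379 (1.78), whose adjusted p ran from 0.0543 to 0.0805, and changed no other call. The 2 ipsilateral calls became 3 with DESeq2 and stayed 2 in the block fit, and the 0 interaction calls became 11 with DESeq2. Ahr was called with DESeq2 (-0.24) and ranged from -0.30 to -0.19 when 1 library was left out. All 21 called genes kept their direction in every alternative that gave a value.

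Of 90 named genes, 33 values in 16 genes changed sign, and only in fits that adjusted for fibroblast content or left out the 3 richest libraries. With the fibroblast score they were Glul (-0.0261), Col3a1 (-0.0936), Ctsk (-0.30), Aldh1a2 (-0.24), Cdh5 (-0.0537), Pdgfrb (-0.11), Lyve1 (-0.0497), Retnlg (-0.29), Hba-a2 (-0.19), Gjb6 (-0.17), Aldh3a1 (-0.14), Hlf (-0.0628) and Nupr1 (-0.26). With both scores they were Glul (-0.0327), Col3a1 (-0.0801), Ctsk (-0.25), Aldh1a2 (-0.0449), Cdh5 (-0.13), Pdgfrb (-0.15), Lyve1 (-0.0198), Retnlg (-0.30), Hba-a2 (-0.0209) and Nupr1 (-0.13). Without H64, H95 and H100 they were Glul (-0.018), Scn7a (0.0236), Ctsk (-0.0764), Igfbp2 (-0.16), Aldh1a2 (-0.18), Pdgfrb (-0.00403), Gjb6 (-0.34), Hlf (-0.0836), Nupr1 (-0.11) and Slc7a11 (-0.00878). Ahr had 1572 to 3277 counts per library, and the effect of depth was not tested. With 2 cKO libraries left, the fit assumes that they vary like the other groups. Col3a1 is part of the fibroblast score, so its values under the scores are not read. The cause of the other shifts was not tested.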

Other observations

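Other gene lists were counted in the same way on the uninjured side. Of 28 tested respiratory chain genes 0 were called, 26 were higher in the cKO mean and 13 were higher at an unadjusted p under 0.05, beside 8.0% of all genes, with a median log2 fold change of 0.07. Cox7b, a subunit of cytochrome oxidase, had 91.6, 95.3, 96.1, 96.3 and 97.1 CPM in control and 100.5, 116, 106, 99.05 and 108 CPM in cKO libraries, without overlap (0.15, edgeR adjusted p 0.117). Its highest library was H64. Of 22 genes of cholesterol metabolism 0 were called and 6 were lower at an unadjusted p under 0.05 (median -0.07). They included Srebf2, which controls the pathway (-0.10, edgeR adjusted p 0.154) and had its lowest value in H64.

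Of 22 clock genes 3 were higher and 3 lower at an unadjusted p under 0.05, beside 8.0% and 9.53% of all genes, and none was called. Rora, a nuclear receptor of the clock, had 18.1 to 21.0 CPM in control and 21.2 to 24.5 CPM in cKO libraries (0.18, edgeR adjusted p 0.251), and Hlf, an output factor (1.10, edgeR adjusted p 0.154), was highest in H95 and H100. The integrated stress response had 3 higher and 1 lower of 20, and hypoxia and glycolysis 3 higher and 2 lower of 20, also with no call. Among interferon-stimulated genes 1 of 25 was lower, Stat2, the interferon signal transducer, with 85.1, 78.9, 79.5, 88.7 and 79.8 CPM in control and 77.3, 67.8, 68.6, 73.8 and 68.9 CPM in cKO libraries (-0.21, edgeR adjusted p 0.0631), without overlap.

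Of 25 sensory neuropeptides and receptors 0 were called, 1 was higher and 4 were lower at an unadjusted p under 0.05. Npy2r, a neuropeptide Y receptor gene of sensory neurons, had 32.5, 31.1, 30.9, 37.3 and 32.4 CPM in control and 28.99, 22.4, 24.9, 29.2 and 22.6 CPM in cKO libraries (-0.36, SE 0.0750, edgeR adjusted p 0.0613). The groups did not overlap. Nppb, the peptide gene of itch-sensing neurons, was lower (-0.34, edgeR adjusted p 0.123), and the opioid precursor gene Penk was higher (0.90, edgeR adjusted p 0.189) with 23.5, 14.8, 37.9, 7.23 and 36.2 CPM in the cKO libraries, H61, H95 and H100 being high.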
